A study of Homo sapiens with 4 samples.

Results

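OVSAYO cells, a human line from an ovarian clear cell carcinoma (CCC), were compared after silencing of the transcription factor Sp1 and after transfection of a control siRNA, in both cases without CoCl2. The comparison takes 2 of the 4 arrays of the series, chosen by their labels, with 1 array a group. The control cells (NS-si) had received Silencer negative control siRNA, and the silenced cells (Sp1-si) had received a pool of siRNAs against Sp1. By the labels, transfection used lipofectamine 2000, and culture in RPMI1640 lasted 40 h in both, while the study's text names another transfection reagent, another source of the Sp1 siRNA and a shorter culture. The other 2 arrays hold the same pair of siRNAs with 0.5 mM CoCl2, a hypoxia-mimicking agent, for 4 h, and serve here only to show which ratios recurred on other arrays. All values come from a single line and a single Sp1 siRNA reagent, so transcripts that respond to loss of Sp1 and transcripts that respond to the siRNA itself cannot be told apart. With 1 array a group there is no replicate and no test, and each ratio describes a single pair of arrays, so that precision is limited by their number.

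Sp1 is a zinc finger protein that binds GC-rich boxes in the promoters of many genes, among them genes used by nearly every cell, and recruits the general transcription machinery through TFIID and Mediator. Related SP and KLF factors recognise similar boxes and can occupy the same promoters. In ovarian CCC, Sp1 has been studied for its part in the response to low oxygen.

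The target of the siRNA was low on the Sp1-si array. The SP1 probe printed in 10 spots read 553 in the control and 39.2 after silencing. Once the arrays were scaled to their 75th percentile, the log2 ratio was -3.77 (SD over spots 0.15). The other SP1 probe went from 330 to 20.4, a log2 ratio of -3.96. Signals are in arbitrary units as the scanner software gave them before scaling, and every log2 ratio below is Sp1-si minus NS-si after scaling. A normexp background correction, chosen after the data were seen, gave -2.50 for the 10-spot probe.

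Each array carried 41000 probes, of which 31437 (76.7%) were well above background on both arrays and are called measured. Symbols were available for 21460 of these probes, which stand for 14622 genes, and each gene was represented by its brightest measured probe. The signals at the 75th percentile were 1143 and 1100 on these 2 arrays, which sat on the same slide. The SD of a ratio between spots was 0.39 for the dimmest group of the probes printed in 10 spots and 0.063 for the brightest of 5 such groups, and it covers technical error only. Of the markers for the labelled origin, PAX8, EPCAM, KRT7, KRT8, KRT18 and KRT19 were all measured. Of 16 markers of leukocytes, endothelium and fibroblasts on the array, 8 were measured as well, with log2 ratios from -3.10 to 0.43, 3 of them at -1 or less. LUM stood at 766 in NS-si and 350 in Sp1-si, CD68 at 720 and 248, CD3E at 250 and 213, and COL1A2 at 77.5 and 8.69. The other 8, among them PTPRC, PECAM1, CDH5 and PDGFRB, were not measured. These markers were named after their values were seen.

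Silencing went with differences in both directions. The log2 ratio was at or under -1, that is at least 2-fold lower in Sp1-si, for 1686 probes (5.36%), and at or over 1 for 1580 probes (5.03%). Counted by gene, 848 of 14622 genes were lower (5.8%) and 859 were higher (5.87%), and these shares are the background for every list of genes below. The ratios of measured probes had a median of -0.02 and an SD of 0.63, with the 5th percentile at -1.03. The extremes were longer on the upper side, with 40 probes at 3 or more and 19 at -3 or less. The balance of lower and higher probes depended on the scaling, with 1894 lower and 1387 higher without scaling and 1541 lower and 1711 higher in the authors' values. With the normexp correction the counts were 799 lower and 858 higher probes.

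**Figure D1:**
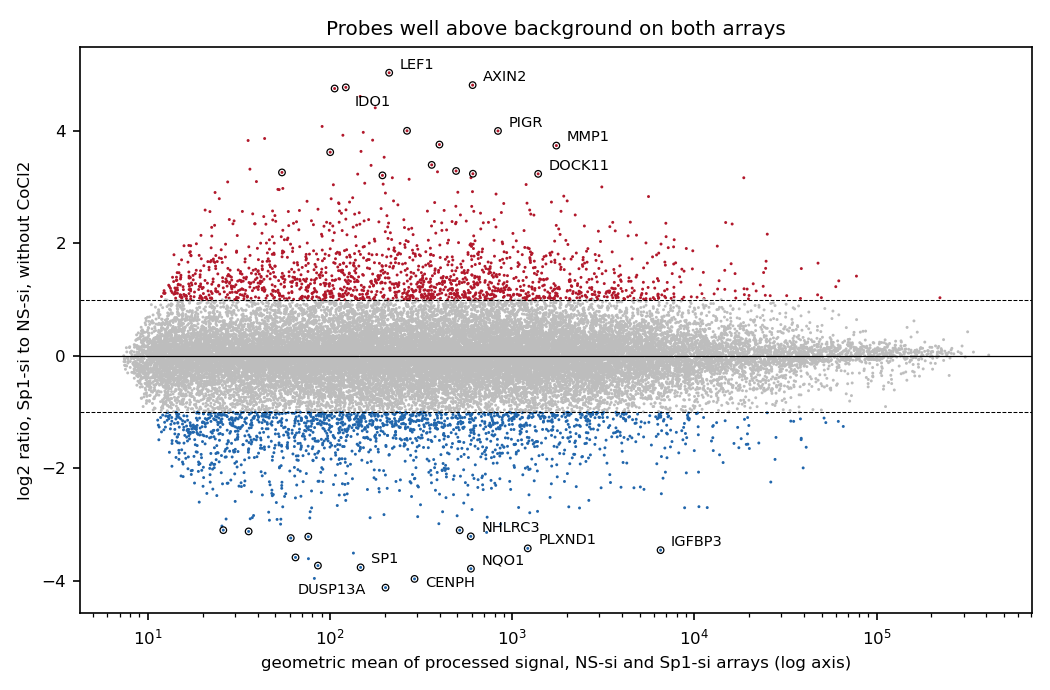
Each of the 31437 measured probes is a point, with the geometric mean of its signals on the NS-si and Sp1-si arrays on a logarithmic horizontal axis and its log2 ratio without CoCl2 on the vertical axis. Blue and red points lie past the dashed lines at -1 and 1, and circles mark the 15 highest and 14 of the 15 lowest genes by their brightest probe, which run from DUSP13A at -4.13 to LEF1 at 5.04.

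Most of these ratios were seen again on the pair of arrays with CoCl2, which shares no array with the pair without it. The cultures may stem from the same transfection, so this pair is not a replicate. Of 1540 lower probes that cleared background on each of the 4 arrays, 1504 (97.7%) were also lower with CoCl2 and 1069 (69.4%) were again at -1 or less, while 2785 of all 30234 such probes (9.21%) were. Among 1515 higher probes, 1447 (95.5%) kept their direction and 1037 (68.4%) were again at 1 or more, against 1810 of all (5.99%). Of probes at 2 or more in size, 182 of 194 lower and 193 of 197 higher ones reached 1 the same way. Across all 30234 probes the ratios of both pairs correlated with a Pearson r of 0.757 and a Spearman rho of 0.688, where probes are not independent replicates and all 4 arrays lay on 1 slide.

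**Figure D2:**
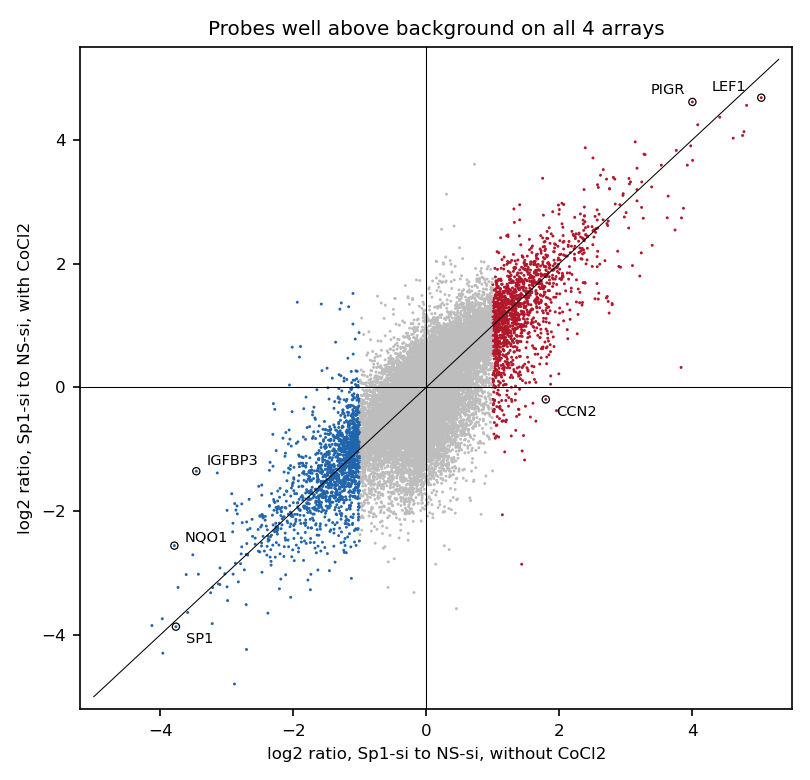
The log2 ratio of Sp1-si to NS-si without CoCl2 (horizontal) is set against that with CoCl2 (vertical) for the 30234 probes that cleared background on each of the 4 arrays, with the line of equal ratios. SP1 and LEF1 lie near the line, whereas IGFBP3 (-3.46 without and -1.36 with CoCl2) and CCN2 (1.80 and -0.20) lie away from it.

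The lowest genes spanned enzymes, secreted proteins and a kinetochore subunit. DUSP13A, a dual-specificity phosphatase, went from a signal of 859 in the control to 47.4 (-4.13 on the log2 scale). CENPH, which belongs to the inner kinetochore that joins centromeres to spindle fibres, went from 1174 to 72.1, a ratio of -3.97. NQO1, the quinone reductase by which NRF2 activity is often read, went from 2247 to 157, a ratio of -3.79. These 3 genes were thus as low in Sp1-si cells, relative to the control, as the SP1 transcript itself. AKR1B10, an aldo-keto reductase, followed with signals of 319 and 23.1 (-3.73), and its other probe gave -3.61. DNALI1, a light intermediate chain of axonemal dynein, stood at 229 and 18.3 (-3.59).

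Several of the 15 lowest encode proteins of the cell surface or the extracellular space. IGFBP3, a binding protein for insulin-like growth factors, was the brightest of them, with 22034 and 1929 (-3.46, SD over spots 0.05). Its other probe gave -3.14, and with CoCl2 the ratio of the bright probe was smaller, at -1.36. PLXND1, a semaphorin receptor, stood at 4068 and 364 (-3.43), and a dimmer probe gave -1.93. CILP, a cartilage matrix protein, was at -3.24, the adhesion molecule NECTIN4 at -3.22, the secreted protease KLK11 at -3.12 and ERP27, a protein of the endoplasmic reticulum, at -3.10. COL1A2, a chain of type I collagen, was also at -3.10, but its signals of 77.5 and 8.69 were dim, and the normexp correction gave -0.96. The KLK11 signals, 108 and 11.9, were dim too (spot SD 0.39). NHLRC3 was at -3.21, whereas its other probe gave -0.28.

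The upper end included 3 genes of Wnt signalling and a number of others. LEF1, a DNA-binding partner of beta-catenin, went from a signal of 37.6 to 1188, the highest log2 ratio at 5.04. AXIN2, a feedback inhibitor that Wnt signalling itself induces, went from 116 to 3158 (4.82), and a dim second probe gave 2.80. The Wnt receptor FZD10 went from 29.1 to 345 (3.62). All 3 were low in control cells and plainly detected after Sp1 silencing. IDO1, which starts the breakdown of tryptophan to kynurenine, stood at 23.8 and 627 (4.78). TREM1, a receptor of the immunoglobulin family known from myeloid cells, stood at 67.3 and 1040 (4.00). PIGR, the carrier of polymeric immunoglobulins across epithelia, stood at 213 and 3280 (4.00). CASP1, the protease that matures interleukin-1 beta, was higher as well, with 202 and 1835 (3.24), and so was TRIM22, an interferon-inducible ubiquitin ligase, with 160 and 1509 (3.29).

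The remaining genes of the upper end included a pair of matrix metalloproteinases. MMP26 went from 20.8 to 541 (4.76), and MMP1, the interstitial collagenase, from 487 to 6266 (3.74, SD over spots 0.09). ENTPD3, which hydrolyses extracellular nucleotides, stood at 110 and 1439 (3.76). These 3 genes lay at 2.54 or more with CoCl2 as well. GPR155, a multispan membrane protein, was at 3.40, the ADP-ribosyltransferase gene ART5 at 3.26, the guanine nucleotide exchange factor DOCK11 at 3.24 and C15orf62 at 3.21. In all, the 30 genes differed in the same direction on the pair of arrays with CoCl2, and IGFBP3 had the smallest ratio there.

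**Figure D3:**
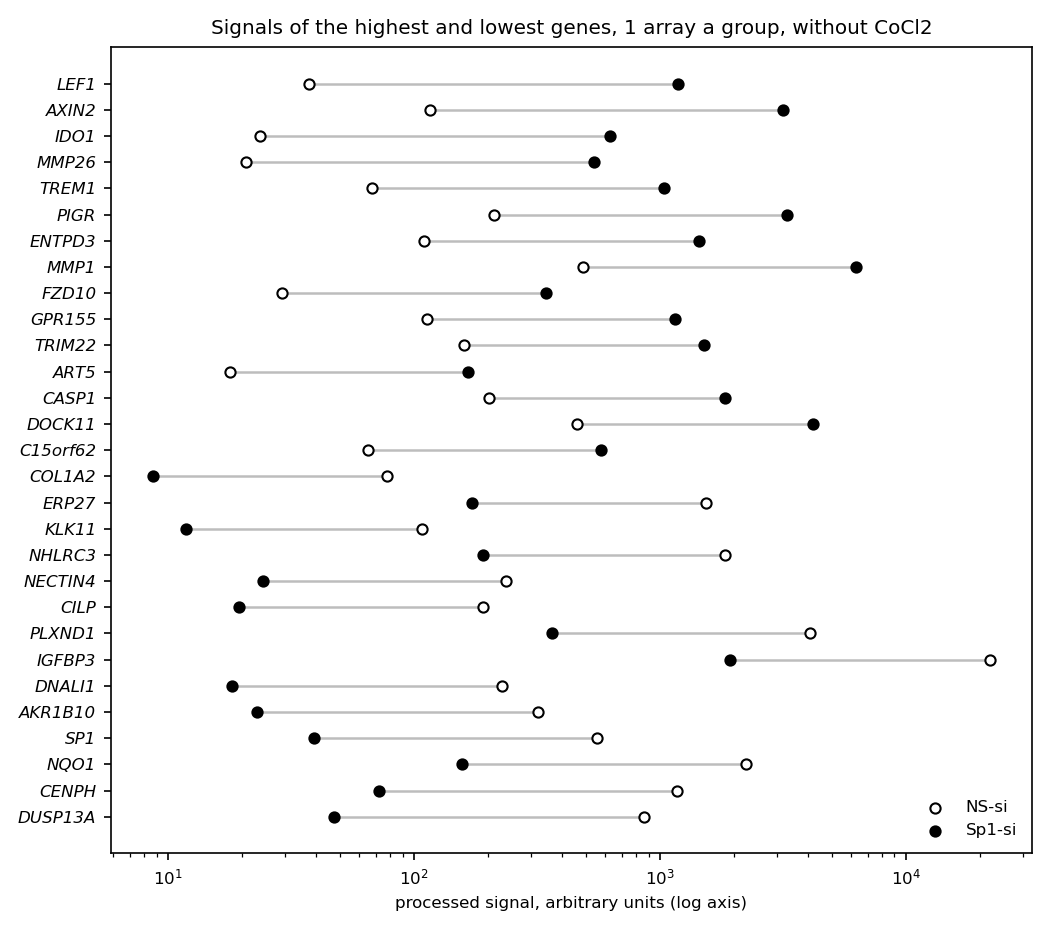
Processed signals of the 15 highest and 14 of the 15 lowest genes on the NS-si array (open) and the Sp1-si array (filled), each from its brightest probe and 1 array a group, on a logarithmic axis in arbitrary units. SP1 stands among the lowest genes with 553 and 39.2, and LEF1 tops the highest with 37.6 and 1188.

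Genes with several probes give a check that does not rest on 1 oligonucleotide. Of 5131 such genes, 862 had at least 1 probe past 1, and every probe was at -1 or less in 166 and at 1 or more in 159, while probes lay past 1 in both directions in 1 gene only. On both pairs of arrays, every probe was past 1 in 109 lower and 98 higher genes. Besides SP1, AKR1B10, IGFBP3 and PLXND1, the largest mean ratios among the lower ones were those of PTAFR, the receptor for platelet-activating factor (-2.77 and -2.62), of SFTA2, a surfactant-associated protein (-2.69 and -2.70), of KLB, a coreceptor for endocrine FGFs (between -3.03 and -2.47 over 3 probes), and of WSB2 (-2.57 and -2.36). Among the higher ones, besides AXIN2, GPR155 and TRIM22, they were those of GDPD5 (2.88 and 2.69), FAM169A (2.76 and 2.74), EMP2 (2.42 and 2.96), the ETS factor ETV1 (2.33 and 2.98) and HPGD, which inactivates prostaglandins (2.38 and 2.76).

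For probes well above background on 1 array only, a ratio is a bound. There were 627 such probes for NS-si and 996 for Sp1-si. In control cells, FGD5 was at least 27.1-fold, KCNAB1 at least 21.5-fold, LIPH at least 19.1-fold, ATXN7L1 at least 15.3-fold and STK32A at least 13.4-fold higher. With CoCl2, however, only LIPH, a phospholipase, was well above background, with a ratio of -2.72, and the other 4 probes were dim on the NS-si array there too. In Sp1-si cells, the channel gene PKD2L1 was at least 21.97-fold, the interferon-inducible gene XAF1 at least 19.4-fold, the collagen gene COL16A1 at least 18.5-fold, the cadherin gene CDH15 at least 15.5-fold and a dim probe of ENTPD3 at least 15.2-fold higher. All 5 were again well above background on the Sp1-si array with CoCl2. XAF1's brightest probe gave 1.87 without and 0.05 with CoCl2.

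Kinetochore and mitotic genes were lower as a group. The kinetochore is the protein assembly on each centromere that captures spindle microtubules. Many of its genes, though not all, are transcribed mainly late in the cell cycle, like those of mitotic kinases. Of 46 measured genes, 27 were at -1 or less and 0 at 1 or more, against 5.8% and 5.87% of all genes, and the median log2 ratio was -1.07 against -0.01 over all genes. Among constitutive centromere proteins 10 of 16 were lower, in the outer kinetochore 7 of 12, and among checkpoint proteins and mitotic kinases 10 of 18. With CoCl2, 18 of the 46 were lower and 0 higher, beside 7.77% and 7.04% of all genes.

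Within this group CENPH stood apart, the next centromere genes being CENPK (-1.65) and CENPI (-1.36), chosen after their values were seen. BIRC5, which encodes survivin of the chromosomal passenger complex, went from 10712 to 2024 (-2.35). TOP2A, which untangles sister chromatids, had 2909 and 599 (-2.22). SKA1, a microtubule-binding outer kinetochore protein, had 57.5 and 17.0 (-1.70). These were the strongest of the group after CENPH. The highest ratio was that of CENPT at 0.52, and AURKA (-0.10), BUB3 (0.03), PMF1 (0.09) and MIS12 (0.14), named after their values were seen like CENPT, lay near 0. With the normexp correction 16 of the 46 were lower. In bulk RNA, fewer cells in mitosis and less RNA in each such cell cannot be told apart.

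The promoter of TOP2A is shown because genes of this class are known for CCAAT boxes, which bind NF-Y, beside GC boxes. It is the RefSeq window at chr17:40417847-40418146 on the minus strand of GRCh38.p14, from 250 bases before to 50 after the start of transcription, with CCAAT, or its reverse complement, in capitals.

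TOP2A: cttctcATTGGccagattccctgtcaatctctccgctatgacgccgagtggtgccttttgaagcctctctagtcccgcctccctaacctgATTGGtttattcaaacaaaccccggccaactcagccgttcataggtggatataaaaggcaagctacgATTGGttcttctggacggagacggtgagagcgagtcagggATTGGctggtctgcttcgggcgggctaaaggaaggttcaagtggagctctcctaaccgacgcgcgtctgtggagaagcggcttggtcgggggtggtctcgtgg

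The window held 4 CCAAT boxes and 1 GC box (GGGCGG on either strand). RefSeq windows were at hand for 38 of the 46 genes, and 32 of their 44 windows (72.7%) held CCAAT and 30 (68.2%) held GGGCGG, whereas of all 35116 windows 34.6% held the first and 45.0% the second. For the replication genes, of which 9 of 47 were lower, windows were at hand for 39, and 29 of their 50 windows (58%) held CCAAT and 37 (74%) held GGGCGG. The set of all windows covers 27305 genes, many of them not measured here, whereas both lists hold measured genes only, lower or not. A match is a stretch of letters and was not tested as a binding site. Windows were at hand for 76.7% of the lower, 79.7% of the higher and 79.6% of all measured genes, under the 80% set as a minimum, so the motif shares of lower and higher genes were not compared.

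Genes of DNA replication and of the step from G1 to S phase were lower in smaller number. Of 47 measured, 9 were at -1 or less and 0 at 1 or more, with a median of -0.36. MCM10, which helps to start replication forks, went from 179 to 55.9 (-1.62), cyclin E2 (CCNE2) from 30.9 to 10.6 (-1.49), CDC45 of the replicative helicase from 2201 to 837 (-1.34) and cyclin A2 (CCNA2) stood at -1.31. CCNE2 was the dimmest of them and stood at 0.31 with CoCl2. Other members lay closer to 0, for example the helicase subunits MCM3 (-0.08) and MCM7 (0.30) and the sliding clamp PCNA (0.11), named after their values were seen. With the normexp correction 3 of the 47 were lower.

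Inhibitors of cyclin-dependent kinases and genes of cell cycle arrest and DNA damage tended the other way. Of 25 measured, 7 were at 1 or more and 0 at -1 or less, with a median of 0.20. CDKN2D, which blocks CDK4 and CDK6, went from 883 to 3799 (2.16), SFN, the 14-3-3 sigma protein, from 540 to 1749 (1.75), TP53INP1 from 1769 to 5428 (1.67) and CDKN1C, the p57 inhibitor, from 1915 to 5076 (1.46). CDKN1A, which encodes the p21 inhibitor and has a known Sp1-bound promoter, was at 0.00 and the ubiquitin ligase gene MDM2 at 0.01, both named after their values were seen. With CoCl2 6 of the 25 were higher and 0 lower.

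Genes that the factor NRF2 switches on in oxidative stress were lower in part. NRF2 binds antioxidant response elements and induces enzymes that reduce quinones and make glutathione. Of 33 measured targets, 12 were at -1 or less and 0 at 1 or more, with a median of -0.43. The 12 were mainly in 2 subgroups, 4 of 7 genes of quinone and carbonyl reduction and 7 of 13 genes of glutathione and thioredoxin. In contrast, 1 of 6 genes of NADPH supply was lower, and 0 of 7 in a subgroup of iron, haem and other genes. Some targets lay on the higher side short of 1, among them BLVRB (0.71), HMOX1 (0.68) and PTGR1 (0.60), named after their values were seen.

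GCLC, the catalytic subunit of the rate-limiting step of glutathione synthesis, went from 3938 to 661 (-2.52). TXNRD1, thioredoxin reductase, went from 1233 to 248 (-2.26), and SLC7A11, the cystine importer, from 3837 to 1266 (-1.54, with other probes at -1.63 and -1.45). The aldo-keto reductases split, for AKR1C1 was at -1.95 and AKR1C3 at -1.75 next to AKR1B10, whereas AKR1B1 went from 5096 to 14286 (1.54). One of 3 AKR1C1 probes gave -0.25, and AKR1C transcripts are nearly alike in sequence, so their probes may share signal. With CoCl2 11 of the 33 were lower and 0 higher, and NQO1 stood at -2.56, GCLC at -1.60 and TXNRD1 at -1.02, each smaller in size than without CoCl2. The NRF2 gene NFE2L2 went from 10329 to 8061 (-0.30) and its inhibitor KEAP1 from 2848 to 2278 (-0.27), and 0 of 11 regulators were past 1 in either direction. Their ratios ran from -0.54 to 0.97, the highest that of MAFF, a small partner of NRF2, and 1 regulator was past 1 in the authors' values. NFE2L2, KEAP1 and MAFF were named after their values were seen.

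The NQO1 promoter is shown because NQO1 was among the lowest genes and has GC boxes. The RefSeq window is chr16:69726511-69726810 on the minus strand of GRCh38.p14, and capitals mark GGGCGG or its reverse complement.

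NQO1: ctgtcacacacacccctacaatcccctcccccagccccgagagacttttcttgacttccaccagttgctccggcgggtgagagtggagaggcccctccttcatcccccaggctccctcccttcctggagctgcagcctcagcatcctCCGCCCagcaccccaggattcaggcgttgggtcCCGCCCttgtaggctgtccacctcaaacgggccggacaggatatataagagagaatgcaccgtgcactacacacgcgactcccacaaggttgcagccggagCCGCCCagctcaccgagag

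It held 3 GC boxes and no antioxidant response element core (TGACNNNGC), of which 13.4% of all windows held a match. The known element of this gene may lie outside the window, and the absence of these letters says nothing of NRF2 binding.

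Interferon-stimulated genes were higher in part. Interferons act through STAT and IRF factors to induce antiviral effectors, and many of these genes also respond to double-stranded RNA. Of 37 measured, 12 were at 1 or more and 0 at -1 or less, with a median of 0.66. After IDO1, the factor IRF1 went from 257 to 1471 (2.57), SAMD9L, a restriction factor, from 88.5 to 351 (2.04) and IFIT5, which binds viral RNA, from 135 to 495 (1.93, other probe 1.81). Among the classical effectors, IFIT1 was at 1.08 and OASL at 1.33, but MX1 was at -0.16, MX2 at 0.26, OAS2 at 0.12 and OAS3 at 0.43. STAT2 was at 0.15. These 7 genes were named after their values were seen. With CoCl2 12 of 35 were higher and 0 lower. With the normexp correction 6 of the 37 were higher.

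Because transfected siRNA is itself double-stranded RNA, sensors and the RNA interference machinery were looked at beside these genes. Of 20 measured, 3 were at 1 or more and 0 at -1 or less. AGO4, an Argonaute protein, went from 40.3 to 136 (1.81), TNRC6C, its partner in silencing, from 713 to 2219 (1.69) and the sensor RIGI from 503 to 999 (1.04, and 0.99 without scaling of the arrays). AGO2, the Argonaute that cleaves targets, was at -0.36 and the kinase EIF2AK2 at 0.20, both named after their values were seen, and IFNB1 was not measured. NS-si cells also carried an siRNA, and the part of the siRNA sequence in these values was not tested.

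The IRF1 promoter is shown as that of a gene on the higher side that also has GC boxes. The window is chr5:132490724-132491023 on the minus strand of GRCh38.p14, with GGGCGG or its reverse complement in capitals.

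IRF1: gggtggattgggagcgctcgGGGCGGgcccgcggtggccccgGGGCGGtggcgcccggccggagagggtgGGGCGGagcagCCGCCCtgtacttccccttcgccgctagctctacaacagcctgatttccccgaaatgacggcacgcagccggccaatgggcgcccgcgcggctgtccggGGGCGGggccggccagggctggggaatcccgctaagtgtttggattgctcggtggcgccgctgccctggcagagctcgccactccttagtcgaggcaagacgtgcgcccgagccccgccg

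It held 5 GC boxes. The letters GAAANNGAA, the only interferon response pattern searched for, did not lie in it, while 8.11% of all windows held a match. Motifs of STAT factors were not searched for, and the absence of these letters says nothing of a response to interferon.

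Antigen processing genes were higher in part, with a median of 0.25, while several HLA genes were lower by less than 2-fold. HLA class I molecules present peptides that the immunoproteasome cuts and the TAP transporter delivers. The immunoproteasome subunits PSMB10, with 3935 and 12038 (1.67), PSMB8, with 450 and 1271 (1.55), and PSMB9, with 2647 and 5214 (1.03), and the activator subunit PSME1, with 35418 and 69862 (1.04), were at 1 or more, and 0 of 21 genes were at -1 or less. Without scaling of the arrays, PSMB9 and PSME1 were at 0.98 each and 1 gene passed -1. HLA-B and HLA-C were at -0.79 and HLA-F at -0.68, HLA-G lay just short of -1, and B2M was at 0.06. The HLA genes and B2M were named after their values were seen, and since the HLA genes resemble each other, their probes may share signal. With CoCl2 4 of 21 were again higher and 0 lower.

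IDO1 was alone among the enzymes of its pathway. Of 16 measured genes of kynurenine metabolism and of the aryl hydrocarbon receptor, to which kynurenine binds, 1 was at 1 or more and 4 were at -1 or less. QPRT, which leads from tryptophan to NAD, went from 80423 to 19422 (-1.99) and AADAT, an aminotransferase of kynurenine, from 142 to 59.6 (-1.20). The receptor's target genes CYP1B1, with 22987 and 3396 (-2.70), and CYP1A1, with 5354 and 2128 (-1.28), were lower too, and the receptor gene AHR, named after its value was seen, was at -0.38. With CoCl2, CYP1B1 was at -4.24.

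Wnt target and feedback genes were higher more often than lower. Wnt ligands stabilise beta-catenin, which drives target genes together with LEF1 and TCF factors, and several targets feed back to damp the pathway. Of 24 measured, 10 were at 1 or more and 4 at -1 or less, with a median of 0.38. After LEF1 and AXIN2 came TCF7, with 25.9 and 117 (2.23), and FGF9, with 43.2 and 186 (2.16). TNIK, a kinase that TCF4 complexes need, was lower, with 290 and 77.0 (-1.86), as were SOX9 (-1.12), CD44 (-1.09) and the ephrin receptor gene EPHB2 (-1.06). SOX9 was dim, with 19.6 and 8.70 (spot SD 0.39). With the normexp correction 2 of the 24 were lower and 9 higher. SP5, a target that itself belongs to the SP family, could not be settled, since its brightest probe gave -0.19 and 2 dimmer ones 4.41 and 4.62.

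The rest of the Wnt pathway differed in both directions. Among 17 inhibitors, 5 were at 1 or more and 0 at -1 or less, led by KREMEN1, which removes the LRP coreceptors, with 934 and 2869 (1.67), by the secreted SFRP1 with 416 and 1207, by the corepressor TLE3 (1.32, other probe 0.94) and by KREMEN2 (1.22). Among 41 ligands, receptors and transducers, 4 were lower and 5 higher. The ligands WNT7B, with 738 and 173 (-2.04), and WNT10B, with 193 and 68.0 (-1.45), and PORCN, the enzyme that acylates Wnt ligands, with 31503 and 9761 (-1.64), were lower, as was the receptor ROR1 (-1.10, other probe -0.68). FZD10 and FZD2 (1.85), WLS, the carrier of Wnt ligands (1.37), and TCF7L1 (1.24) were higher. CTNNB1, which encodes beta-catenin and was named after its value was seen, was at 0.07. For the targets, 9 of 24 were higher and 5 lower with CoCl2.

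**Figure D4:**
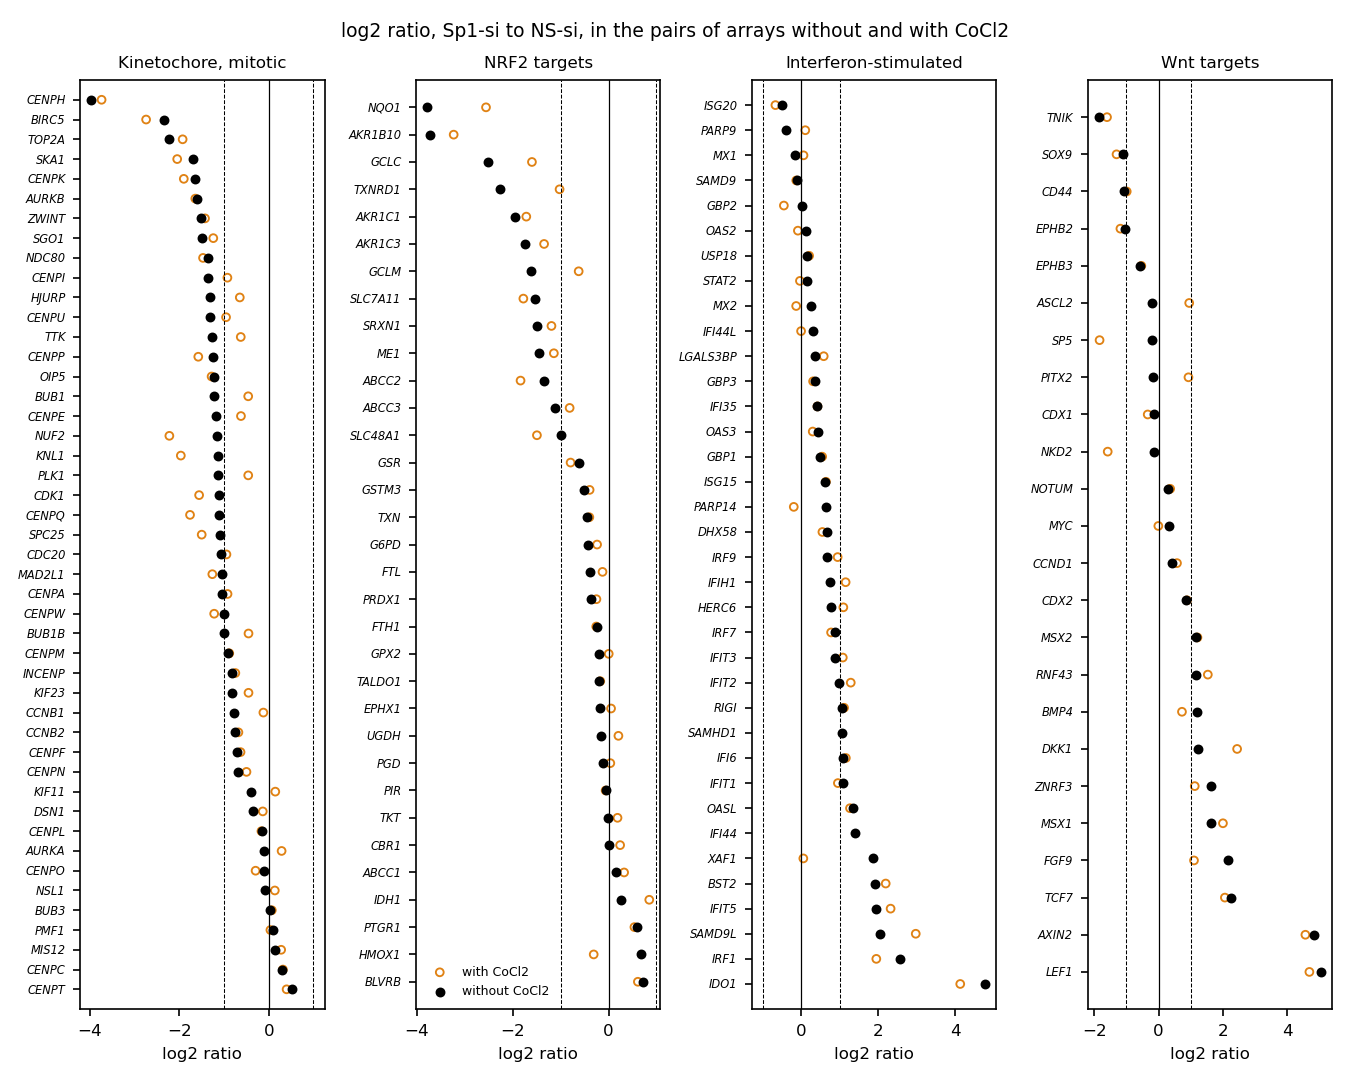
Each row is a gene of the kinetochore and mitotic, NRF2 target, interferon-stimulated (1 of 37 not shown) or Wnt target list, with its log2 ratio of Sp1-si to NS-si without CoCl2 (filled) and, where it was well above background on all 4 arrays, with CoCl2 (open), 1 pair of arrays each. The dashed lines mark -1 and 1, past which 27 of 46 kinetochore and mitotic genes lie on the lower side and 12 of 37 interferon-stimulated genes on the higher side without CoCl2.

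Genes whose promoters textbooks describe as Sp1-regulated were lower in part, while most differed by less than 2-fold. Of 45 measured, SP1 included, 10 were at -1 or less and 0 at 1 or more, against 5.8% and 5.87% of all genes, with a median of -0.18. Next to BIRC5, CAV1, the coat protein of caveolae, went from 7074 to 1337 (-2.35), and VEGFA, the angiogenic growth factor, was lower by all 4 of its probes, between -2.26 and -1.20. EGFR, at -1.72, was among the other lower genes, while TERT was at -0.10 and ODC1 at -0.49. These 3 genes were named after their values were seen. With CoCl2 11 of 44 were lower and 0 higher.

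Cofactors of Sp1 differed less. TFIID, Mediator and histone acetylase or deacetylase genes, 37 in all, lay between -0.54 and 0.69, with 0 past 1 in either direction. Of 21 SP and KLF genes measured, 4 were at 1 or more. SP3, which shares the GC box with Sp1, went from 1586 to 3563 (1.22), but its other probe gave 0.18. KLF12, a repressor, went from 131 to 309 (1.29), KLF11 was at 1.09 with another probe at 0.58, and KLF2 at 1.08 with another at -0.04. By the mean of all probes of a gene, 2 of the 21 were higher, KLF12 and SP5, and SP3 was at 0.70. SP5 was unsettled, since its brightest probe gave -0.19 and the 2 dimmer ones 4.41 and 4.62.

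Lineage and epithelial genes did not move as a unit. Among 18 markers of ovarian CCC, NAPSA, the aspartic protease napsin A, went from 5131 to 984 (-2.33), the tissue factor gene F3 from 266 to 81.1 (-1.66) and TFPI2, a secreted protease inhibitor, from 103390 to 41644 (-1.26), whereas GPX3, a secreted glutathione peroxidase, went from 1989 to 9955 (2.38). The lineage factor PAX8 (0.15) and the secreted protein SPP1 (-0.35) lay within 1. Of 10 epithelial genes, CDH1, which encodes E-cadherin, went from 39380 to 12931 (-1.55) and the splicing regulator ESRP1 from 757 to 283 (-1.37), while KRT18 was at -0.49, KRT7 at -0.42, KRT8 at -0.17, KRT19 at 0.17 and EPCAM at 0.19. Of 8 mesenchymal genes, VIM, the filament protein vimentin, was higher by both probes, with 2104 and 8893 for the brighter (2.13) and 2.04 for the other. SNAI1 (0.81) and CDH2 (0.86) stayed short of 1, and ZEB1 and ZEB2 were not measured. Of these, the genes within 1 were named after their values were seen.

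Of 16 markers of other cell types on the array, 8 were measured and 3 were at -1 or less, which were COL1A2, CD68 (720 and 248, -1.48), a lysosomal protein that epithelial cells also make, and the matrix protein gene LUM (766 and 350, -1.07). The 8 ranged from -3.10 to 0.43. Their part in the other results was not tested.

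Smaller groups showed a few genes each. Of 18 matrix metalloproteinases and TIMPs, 3 were higher and 1 lower, with MMP10, a stromelysin, at 1.99 after MMP26 and MMP1, and the dim MMP21 at -1.72. MMP7 was at 0.29 and TIMP1 at -0.59, both named after their values were seen. Of 20 NFkB genes, IL6, an inflammatory cytokine, went from 695 to 2247 (1.75) and TNF from 108 to 262 (1.33), but a TNF probe with 10 spots gave 0.29, and 0 were at -1 or less. Of 21 immediate early genes 3 were higher and 0 lower, with CCN2, a matricellular protein, at 1.80, ATF3 (1601 and 3297, other probe at 0.61) and KLF2. Of 20 dual-specificity phosphatases only DUSP13A and DUSP19 (-1.24) passed, on the lower side. Of 28 genes with hypoxia response elements 4 were lower and 2 higher, among them VEGFA, the vasodilator gene ADM (-1.45), ERO1A (-1.13) and HK2 (-1.04) against MXI1 (1.64) and CA12 (1.11).

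Metabolic stress genes differed in single members only, beside 5.8% lower and 5.87% higher of all genes. Among 23 genes of ATF4 and the unfolded protein response, ASNS, which makes asparagine, went from 53481 to 14346 (-1.84) and PHGDH, the entry to serine synthesis, from 2891 to 1022 (-1.45), with SLC7A11 as the third, while HSP90B1 (1.03) and ATF3 were higher. HSP90B1 was at 0.98 without scaling and 0.85 after quantile normalization. ATF4 itself was at 0.03 and the chaperone gene HSPA5 at -0.05, both named after their values were seen. Of 32 genes of cholesterol and fatty acid synthesis 3 were lower and 0 higher, which were EBP (-1.16), INSIG1 (-1.11) and SCD (-1.10, other probes -0.46 and -0.21).

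Ribosomal protein genes differed little between these arrays, and common reference genes ranged more widely. All 76 cytosolic ribosomal protein genes lay between -0.15 and 0.24, with a median of 0.05. The 16 reference genes lay between -0.85 (YWHAZ) and 0.37 (SDHA), with ACTB at -0.09 and GAPDH at -0.25, all 4 named after their values were seen, and 0 of both lists were past 1.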

How the data were processed

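RNA of each condition was hybridised to 1 Agilent 1-colour whole human genome array, and all 4 arrays lay on 1 slide. The processed intensity of each spot was deposited by the authors as Agilent Feature Extraction (version 10.5.1.1) gave it, with background subtracted and no scaling between arrays. The intensity values in the series table, also deposited by the authors, equal these up to 1 constant per array. Spots marked as outliers were left out, spots of a probe averaged, and log2 signals scaled to the 75th percentile of each array. Probes well above background on both arrays were compared at a log2 ratio of 1 or more in size. Symbols came from RefSeq accessions, and promoter windows from RefSeq (GRCh38.p14). Columns of other samples in the series table numbered 0.

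Groups follow the labels. With 1 array a group no test was made. Named were SP1, the 15 lowest and 15 highest genes, up to 4 members past 1 per list and direction, the 8 genes of largest mean ratio per direction with every probe past 1 on both pairs of arrays, and the 5 largest bounds per direction. A bound sets the brighter signal against the higher of the dim probe's own signal and the lowest signal well above background on that array. The comparison and the 28 lists were chosen with earlier results of these data known. Alternatives were other scalings, filters, thresholds, probe rules and the authors' values. The planned normexp correction on mean signals could not be run, as no mean signal column was in the files used here, and was run on median signals (limma 3.58.1, R 4.3.3, offset 50) instead, a choice made after the data were seen. Python 3.11.15, numpy 2.4.6 and pandas 2.3.3 were used, and the steps were tested on simulated data. A few genes that meet the naming rule or belong to a list are counted but not reported here by name.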

Additional observations from a re-analysis of the deposited data

Results flagged for a closer look

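Of the genes measured on all 4 arrays, 5 had a log2 ratio of Sp1-si to NS-si past 1 in opposite directions without and with CoCl2. The difference was not tested, since each ratio rests on 1 pair of arrays.

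CD300LG stood at 1.18 without and -1.04 with CoCl2. PAX3 stood at -1.58 and 1.35. PDLIM3 stood at -1.10 and 1.02. REXO1 stood at -1.94 and 1.38. TSNAXIP1 stood at -1.30 and 1.26. NS-si and Sp1-si signals without CoCl2 were 12.9 and 28.1 for CD300LG, 58.7 and 18.9 for PAX3 and 42.9 and 19.2 for PDLIM3. They were 65.0 and 16.3 for REXO1 and 71.4 and 27.9 for TSNAXIP1. With CoCl2 they were 21.7 and 13.9, 9.42 and 31.6, 48.3 and 129, 18.6 and 63.4, and 19.4 and 61.3, in the same order. The median NS-si signal of measured probes without CoCl2 was 357, so these genes were dim. The spot SD was 0.39 for all but TSNAXIP1 (0.11). CD300LG had 2 measured probes, of which the brighter is given.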

How the results depend on the processing

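The normexp correction, which was added after the data were seen, gave 799 lower and 858 higher probes and -2.50 for SP1. Without the filter on background there were 2614 lower and 2603 higher probes. A threshold of 1.5-fold gave 4088 and 3849, a threshold of 3-fold 483 and 484, and counting genes 848 and 859. The other settings kept the counts within 1.5 times and SP1 within its spot SD. No ratio changed sign among SP1 and the 119 other genes that the naming rule gives; genes named outside it with ratios near 0 were not followed. Of 1309 values of these 119 genes under the alternatives, 115 moved by more than the spot SD and 33 were under 1 in size, 21 of them with normexp. By list, normexp gave 16 lower kinetochore and mitotic genes in place of 27, 3 replication genes in place of 9, 2 Wnt targets in place of 4 and 1 marker of other cell types in place of 3, and 6 higher interferon-stimulated genes in place of 12, 3 Wnt inhibitors in place of 5, 1 SP or KLF gene in place of 4 and 1 RNA sensing gene in place of 3. Higher HLA and antigen processing genes were 2 in place of 4 without scaling, and by the mean of all probes higher SP or KLF genes were 2 in place of 4 and immediate early genes 1 in place of 3. Without the filter, lower markers of other cell types were 5. Remaining shifts past 1.5 times were of 1 gene, or from 2 to 4 for higher hypoxia genes without the filter. Without scaling the median ratio of all probes was -0.07. No array can be left out, and no paired analysis was possible because the groups compared share only 1 replicate number, with 1 array each. A fit over all 4 arrays with CoCl2 as a term would average the ratio over both conditions, which is another comparison, and was not run. Dim probes carry the largest spot SD, 0.39, and saturated spots numbered 0.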
